A study of Mus musculus with 16 samples.

Results

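Gene expression was compared between 2 manipulations of Tgif1, labelled as knockdown and overexpression, in mouse J1 embryonic stem (ES) cells, an established line grown here on gelatin in medium with serum and leukemia inhibitory factor. The knockdown arm set 2 Tgif1 KD arrays against 2 arrays of the short-hairpin control (shControl), and the overexpression arm set 4 arrays labelled Tgif1 OE against 4 BirA control arrays. The effect in each arm was the mean of the manipulated group minus the mean of its own control, and the difference of effects was the knockdown effect minus the overexpression effect. These 12 arrays, out of 16 in the series, share no control between the arms. All 20380 probe sets that carry exactly 1 gene symbol, of 22690 on the array, were eligible, and each of 12393 genes was represented by the probe set with its highest mean. The 4 remaining arrays of the series, labelled Tgif2 OE, were used only in an alternative fit.

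Tgif1 encodes a homeodomain protein of the TALE class that mainly represses transcription. It binds DNA at TGTCA cores, recruits corepressors such as CtBP, Sin3 and histone deacetylases, and holds back SMAD proteins downstream of TGF-beta and Nodal as well as retinoid receptors. Its close relative Tgif2 has overlapping functions. ES cells express a set of pluripotency factors that is lost on differentiation, and BirA is a bacterial biotin ligase used to tag proteins. All 4 groups were the same line in the same medium. The labels give no vector, hairpin sequence, clone or time after the manipulation, and nothing in them says that replicates came from separate cultures. The spread behind the p-values may therefore be technical.

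The targeted gene was lower in both arms. On the log2 intensity scale, on which 1 unit is a factor of 2, the Tgif1 probe set read 7.46 and 7.12 on the Tgif1 KD arrays and 10.71 and 10.66 on shControl. It read 10.25, 10.14, 10.06 and 10.02 on the arrays labelled Tgif1 OE, against 10.65, 10.67, 10.70 and 10.74 on BirA control. The knockdown arrays lay far under their controls, and the arrays labelled Tgif1 OE also lay under theirs without overlap, which goes against the label. The knockdown change was -3.39 ± 0.11 (SE; adjusted p = 1.14e-08, limma with Benjamini-Hochberg adjustment over all genes) and the change on the arrays labelled Tgif1 OE was -0.58 ± 0.08 (adjusted p = 2.73e-04). Whether this probe set covers the sequence that was overexpressed is not given in the sources used here, so it may not report the introduced copy, and every direction given for that arm rests on the label.

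Tgif2 moved in opposite directions. Its probe set read 9.85 and 9.84 on Tgif1 KD against 8.98 and 9.10 on shControl, and 8.88, 8.91, 8.77 and 8.69 on the arrays labelled Tgif1 OE against 9.35, 9.28, 9.24 and 9.17 on BirA control. It was above its control on both knockdown arrays and below on all 4 arrays labelled Tgif1 OE. The changes were 0.81 ± 0.09 (adjusted p = 7.43e-05) and -0.45 ± 0.07 (adjusted p = 4.59e-04), and the difference of effects was 1.26 ± 0.11 (adjusted p = 1e-05).

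ES cell identity was clear in every group. The 10 ES cell markers summed to 126.2 to 126.5 on Tgif1 KD and 123.8 to 124.0 on shControl, and to 118.2 to 121.0 on the arrays labelled Tgif1 OE and 121.8 to 123.5 on BirA control, with the mean of each marker at least 9.40 in each group. The 18 fibroblast markers, which would show feeder cells, summed to 105.4 to 106.2 on Tgif1 KD, 107.9 to 109.0 on shControl, 109.5 to 115.4 on the arrays labelled Tgif1 OE and 101.6 to 105.5 on BirA control. The fibroblast sum was thus lower in the knockdown and higher on the arrays labelled Tgif1 OE. There 6 of the 18 were called higher (Tagln, Acta2, Col5a2, Col1a2, Col3a1 and Dcn), against 11.4% of all genes, and 0 lower, against 9.43%. The defining collagen gene Col1a1 had group means of 4.31 to 4.48 and Lum of 2.89 to 3.03. The 8 measured blood markers summed to 46.8 to 47.1 on Tgif1 KD, 46.7 to 46.9 on shControl, 43.8 to 45.3 on the arrays labelled Tgif1 OE and 45.0 to 46.5 on BirA control. Ptprc, the pan-leukocyte CD45 gene, had group means of 3.03 to 3.29, whereas Laptm5 was of the opposite kind (0.71 ± 0.11 and -0.84 ± 0.07) and Cd68 was lower on the arrays labelled Tgif1 OE (-0.83 ± 0.09). The difference between 5′ and 3′ control probe sets, a sign of RNA quality, was higher on Tgif1 KD than on shControl by 0.13 (Gapdh) and 0.14 (Actb) without overlap. On the arrays labelled Tgif1 OE it was -0.09 (Gapdh) and -0.03 (Actb) relative to BirA control. These values also moved in opposite directions in the arms, and their part in the results was not tested. The median SD between arrays of a group was 0.06 on both Tgif1 KD and shControl and 0.12 in both groups of the overexpression arm. In both overexpression groups the arrays fell into pairs, a split that the labels do not name: the median absolute difference over genes was 0.06 to 0.10 between replicates 1 and 2 or between 3 and 4, and 0.14 to 0.17 across these pairs.

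More genes moved in opposite directions than in the same direction. A gene was called at an adjusted p under 0.05, and the calls came to 3218 of 12393 genes in the knockdown arm (26.0%; 1582 higher, 12.8%, and 1636 lower, 13.2%). In the overexpression arm 2587 genes were called (20.9%; 1418 higher, 11.4%, and 1169 lower, 9.43%). Both arms called 1134 genes, which is 35.2% of the knockdown calls and 43.8% of the overexpression calls. Of these, 751 genes (6.06% of all genes) moved in opposite directions, 406 of them higher in the knockdown and lower on the arrays labelled Tgif1 OE (3.28%) and 345 the other way round (2.78%). The other 383 (3.09%) moved in the same direction, 249 higher in both arms (2.01%) and 134 lower in both (1.08%). With the replicate number as a block, which pairs same-numbered arrays within both arms, the same-direction count was 579 and the opposite count 1005.

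Genes with opposite effects therefore made up 66.2% of those called in both arms. This share takes the overexpression arm as labelled, and with that arm turned it would be 33.8%. Among all 12393 genes, called or not, 55.1% had effects of opposite sign. When the overexpression arm was limited to replicates 1 and 2, the share of opposite genes was 66.0%, and limited to replicates 3 and 4 it was 57.0% (1058 opposite and 799 same-direction genes). Leaving out Tgif1 KD replicate 1 gave 499 opposite and 249 same-direction genes, and leaving out shControl replicate 2 gave 486 and 256. Without Tgif1 KD replicate 2 the same-direction count was 252, and without shControl replicate 1 it was 253. The share of opposite genes stayed between 65.5% and 68.5% when any 1 of the 12 arrays was left out. In 707 of the 751 opposite genes and 348 of the 383 same-direction genes the arrays of manipulated and control groups did not overlap in either arm, against 18.7% of all genes. These genes were chosen by calls on the same arrays, so this separation largely follows from the choice and is no further support.

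The effects of the opposite genes were modest and mostly larger in the knockdown. Their median absolute change was 0.61 for the knockdown and 0.42 for the arrays labelled Tgif1 OE, and the knockdown change was the larger in 538 of 751. Only 21 opposite genes and 11 same-direction genes, all 11 higher in both arms, changed by at least 1 log2 unit in both arms.

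The test of the difference of effects called 3438 genes (27.7%), 1610 with the knockdown effect above the overexpression effect (13.0%) and 1828 with it below (14.8%). All 751 opposite genes were among them, as the direction of their effects favours. The difference was also called for 91 of the 383 same-direction genes, 62 of them higher in both arms and 29 lower in both. It was called for 1549 genes that passed only in the knockdown arm, 741 that passed only in the overexpression arm and 306 that passed in neither.

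**Figure D1:**
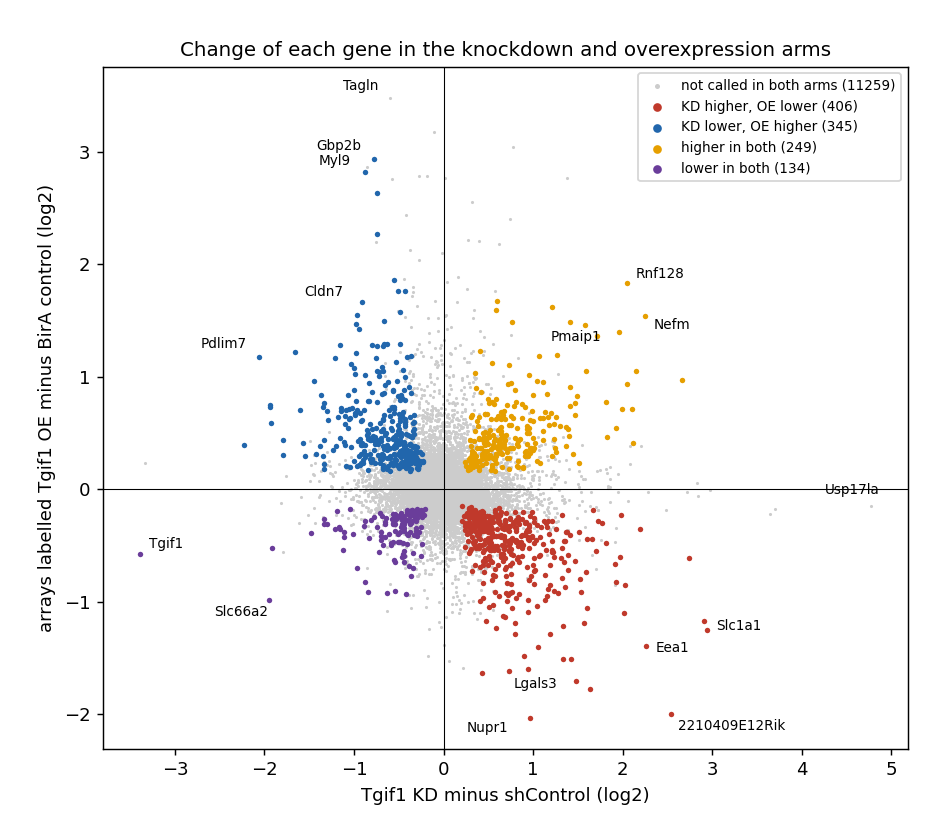
Each point is 1 of 12393 genes, with its log2 change in Tgif1 KD against shControl on the horizontal axis and on the arrays labelled Tgif1 OE against BirA control on the vertical axis. Coloured points are the 1134 genes called in both arms: the upper left and lower right quadrants hold the 751 opposite genes, the upper right and lower left the 383 same-direction genes, with Tgif1 itself in the lower left.

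Lgals3 was among the genes that rose in the knockdown and fell on the arrays labelled Tgif1 OE with the largest change in the less affected arm. It encodes galectin-3, a lectin that binds galactoside sugars, and read 10.71 and 10.64 on Tgif1 KD against 9.08 and 9.30 on shControl. It read 8.38, 8.32, 8.39 and 8.33 on the arrays labelled Tgif1 OE against 10.19, 10.16, 9.92 and 9.96 on BirA control. The 4 groups did not overlap within either arm, and the lowest values of all were those of the arrays labelled Tgif1 OE. The changes were 1.48 ± 0.11 (adjusted p = 2.53e-06) and -1.70 ± 0.08 (adjusted p = 1.78e-07), and the difference of effects was 3.19 ± 0.13 (adjusted p = 4.89e-08).

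The gene 2210409E12Rik had the largest difference of effects among genes called in both arms. Its probe set, of a type that can match close relatives, read 8.96 and 8.93 on Tgif1 KD against 6.32 and 6.49 on shControl. It read 4.38, 4.54, 4.5 and 4.62 on the arrays labelled Tgif1 OE against 6.86, 6.94, 6.26 and 5.98 on BirA control. All knockdown arrays were above and all 4 arrays labelled Tgif1 OE were below their controls. The changes were 2.54 ± 0.25 and -2.00 ± 0.18, and the difference was 4.54 ± 0.31 (adjusted p = 1.49e-06).

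Genes of lipid and acetate metabolism were among those with this pattern, though they were chosen after their values were seen and were not tested as a group. Apoe, the apolipoprotein that carries cholesterol between cells, read 11.41 and 11.28 on Tgif1 KD, 10.17 and 10.20 on shControl, 9.72, 9.65, 9.83 and 9.78 on the arrays labelled Tgif1 OE and 10.46, 10.39, 10.86 and 10.82 on BirA control. It changed by 1.17 ± 0.15 and -0.89 ± 0.10 (difference 2.05 ± 0.18, adjusted p = 6.7e-06). Its neighbour Apoc1, another apolipoprotein gene, changed by 1.93 ± 0.11 and -0.83 ± 0.08. Acss2, the acetyl-CoA synthetase of cytosol and nucleus, changed by 1.56 ± 0.23 and -1.19 ± 0.16. Mpc1, a subunit of the mitochondrial pyruvate carrier, changed by 1.53 ± 0.08 and -0.80 ± 0.05. Each of these was called in both arms and without overlap between the groups of an arm.

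The mitochondrial synthetase gene Acss1 changed by 1.42 ± 0.18 and -1.51 ± 0.13, but its other 2 probe sets were dim and gave differences of 0.86 and -0.13 against 2.93 for the one used. Eea1, an early endosome tether, changed by 2.26 ± 0.24 and -1.40 ± 0.17. The glutamate transporter Slc1a1 changed by 2.94 ± 0.24 and -1.25 ± 0.17, and its other 2 probe sets also had opposite signs in the arms. Pla2g7, which hydrolyses platelet-activating factor, changed by 2.91 ± 0.16 and -1.17 ± 0.11. The connexin gene Gjb5 changed by 1.33 ± 0.22 and -1.51 ± 0.15, Timm8a2, a homologue of a mitochondrial import chaperone, by 1.63 ± 0.26 and -1.78 ± 0.19. Hormad1, which acts on meiotic chromosome axes, changed by 1.33 ± 0.31 and -1.21 ± 0.22, and its knockdown adjusted p rose from 0.00748 to 0.0518 without shControl replicate 2.

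**Figure D2:**
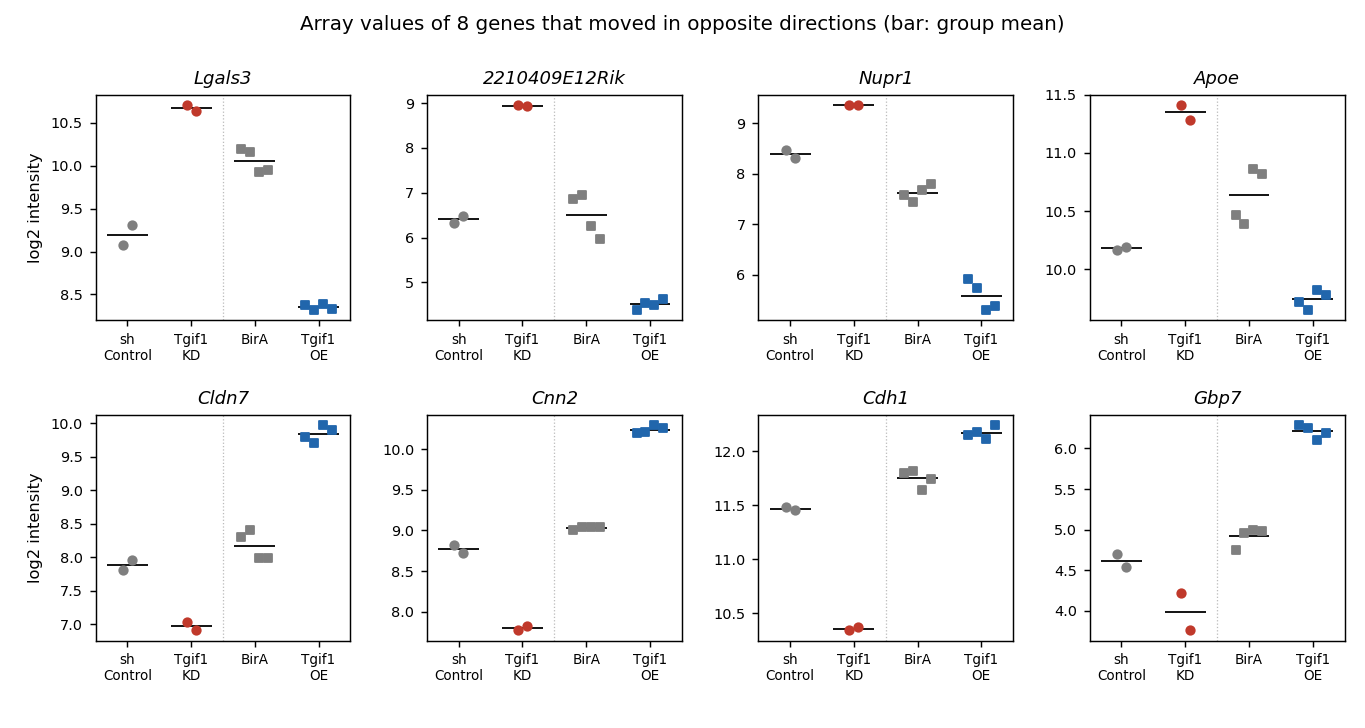
Log2 intensity on each of the 12 arrays for 4 genes higher in the knockdown and lower on the arrays labelled Tgif1 OE (top) and 4 genes with the reverse pattern (bottom); circles are the knockdown arm, squares the overexpression arm, grey the controls and bars the group means. In all 8 panels the manipulated arrays lie on opposite sides of their own controls in the arms, as with Lgals3, at 8.32 to 8.39 on the arrays labelled Tgif1 OE and 10.64 to 10.71 on Tgif1 KD.

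Cldn7, a claudin of tight junctions chosen after its values were seen, fell in the knockdown and rose on the arrays labelled Tgif1 OE. It read 7.03 and 6.91 on Tgif1 KD against 7.81 and 7.96 on shControl. It read 9.79, 9.71, 9.97 and 9.91 on the arrays labelled Tgif1 OE against 8.31, 8.41, 8.0 and 7.99 on BirA control. The knockdown values were the lowest and the values labelled Tgif1 OE the highest of the 4 groups. The changes were -0.91 ± 0.14 (adjusted p = 6.48e-04) and 1.67 ± 0.10 (adjusted p = 8.97e-07), with a difference of -2.58 ± 0.18 (adjusted p = 1.65e-06).

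A second claudin gene, Cldn6, changed by -1.15 ± 0.19 and 1.28 ± 0.14. Cdh1, which encodes E-cadherin, the main adhesion molecule of ES cells, read 10.34 and 10.38 on Tgif1 KD and 11.48 and 11.46 on shControl. It read 12.15, 12.18, 12.11 and 12.24 on the arrays labelled Tgif1 OE and 11.80, 11.82, 11.64 and 11.74 on BirA control. The knockdown fell by 1.11 on the log2 scale (± 0.08 SE) and the arrays labelled Tgif1 OE rose by 0.42 ± 0.06. Cdh2, which encodes N-cadherin, moved the same way, by -0.66 ± 0.12 and 1.29 ± 0.08, so both cadherins were lower in the knockdown and higher on the arrays labelled Tgif1 OE.

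Cnn2 had this pattern too. Cnn2, a calponin that binds actin filaments, read 7.77 and 7.82 on Tgif1 KD, 8.82 and 8.73 on shControl, 10.19, 10.20, 10.29 and 10.26 on the arrays labelled Tgif1 OE and 9.0, 9.04, 9.04 and 9.04 on BirA control. Its changes of -0.98 ± 0.07 and 1.21 ± 0.05 gave one of the smallest adjusted p-values of the difference (-2.19 ± 0.09, adjusted p = 4.89e-08). Pdlim7, an actin-binding scaffold, changed by -2.06 ± 0.12 and 1.18 ± 0.09 on the probe set used. Its other probe set gave 0.20 in the knockdown and 0.99 on the arrays labelled Tgif1 OE, so the knockdown direction depends on the probe set. Calml4, a calmodulin-like gene, changed by -1.66 ± 0.35 and 1.22 ± 0.25. The adenylate cyclase gene Adcy7 changed by -1.21 ± 0.17 and 1.17 ± 0.12, and 1 of its other 2 probe sets, both dim, gave a difference of only -0.45.

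The Id genes, whose products block basic helix-loop-helix factors and which respond to BMP, divided. Id3 read 8.08 and 7.67 on Tgif1 KD, 8.84 and 8.91 on shControl, 9.56, 9.57, 9.82 and 9.89 on the arrays labelled Tgif1 OE and 8.56, 8.33, 8.84 and 8.79 on BirA control, with changes of -1.0 ± 0.18 and 1.08 ± 0.13. Id4 went the other way: it read 9.37 and 9.30 on Tgif1 KD, 7.37 and 7.48 on shControl, 7.63, 7.35, 7.46 and 7.28 on the arrays labelled Tgif1 OE and 7.90, 7.92, 8.31 and 8.24 on BirA control. Its changes were 1.91 ± 0.15 and -0.66 ± 0.10, and its other 2 probe sets had the same signs. Id2 changed by -0.67 ± 0.22 and 1.28 ± 0.15. Its knockdown call, at an adjusted p of 0.0395, was lost when any 1 of the 4 knockdown-arm arrays was left out (0.104 to 0.168) and without BirA control replicate 1 (0.0504) or 4 (0.051). Of the 17 measured genes of the BMP pathway and Id list, the difference was called above 0 for 2 (13.0% of all genes) and below 0 for 4 (14.8% of all genes), and these 3 Id genes were its only members called in both arms.

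Many genes of the ATF4 stress response, which cells switch on when amino acids or protein folding fail, were higher in the knockdown or lower on the arrays labelled Tgif1 OE. Of 22 measured members, the difference of effects was called above 0 for 12 (13.0% of all genes) and below 0 for 1, Atf3 (14.8% of all genes). In the knockdown 9 members were higher (12.8% of all genes) and 0 lower (13.2%), and on the arrays labelled Tgif1 OE 1 was higher (11.4%) and 12 lower (9.43%). The median change of the list was 0.14 in the knockdown and -0.36 on the arrays labelled Tgif1 OE, where the medians of all genes were -0.05 and 0.01. The 7 members called in both arms, Atf4, Ddit3, Asns, Nupr1, Slc3a2, Cth and Stc2, were all higher in the knockdown and lower on the arrays labelled Tgif1 OE, a kind that holds 3.28% of all genes.

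Nupr1, a small stress-induced chromatin protein, moved most. It read 9.36 and 9.35 on Tgif1 KD against 8.46 and 8.31 on shControl, and 5.92, 5.74, 5.31 and 5.38 on the arrays labelled Tgif1 OE against 7.57, 7.44, 7.68 and 7.79 on BirA control. The changes were 0.97 ± 0.18 (adjusted p = 0.00184) and -2.03 ± 0.13 (adjusted p = 9.64e-07), and the second probe set of the gene gave 0.86 and -1.87. Asns, asparagine synthetase, read 13.35 and 13.42 on Tgif1 KD, 12.65 and 12.60 on shControl, 11.17, 11.23, 10.90 and 10.84 on the arrays labelled Tgif1 OE and 12.24, 12.24, 11.93 and 11.95 on BirA control. Its changes of 0.76 ± 0.15 and -1.06 ± 0.10 were nearly repeated by its second probe set, at 0.75 and -1.04.

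The transcription factor genes Atf4 and Ddit3 followed the same order. Atf3, also a transcription factor gene, was the member whose difference of effects was called in the other direction. Atf4 itself changed by 0.67 ± 0.12 and -0.64 ± 0.09. Its second-brightest probe set gave 0.35 and -0.67, a dim one gave -0.19 and -0.11, and with the mean of its probe sets the knockdown adjusted p was 0.0581. Ddit3, which encodes CHOP, changed by 0.77 ± 0.15 and -0.66 ± 0.11. Slc3a2, the heavy chain of amino acid exchangers, changed by 0.53 ± 0.08 and -0.30 ± 0.06.

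The calls of the last members were less stable. Stc2, a secreted glycoprotein, changed by 0.52 ± 0.12 and -0.54 ± 0.09, and its knockdown adjusted p of 0.00868 became 0.0739 without Tgif1 KD replicate 1 and 0.0621 without shControl replicate 1. Cth, the cystathionine lyase that makes cysteine, changed by 1.51 ± 0.17 and -0.38 ± 0.12. Its change on the arrays labelled Tgif1 OE was -0.74 within replicates 1 and 2 and -0.03 within replicates 3 and 4. The overexpression call of Cth (adjusted p = 0.0388) was lost with the replicate block (0.0754), without any 1 of Tgif1 OE replicates 1 and 2 or BirA control replicates 1 and 2 (0.101 to 0.103), and without either Tgif1 KD array (0.053).

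The promoters of 4 genes that moved in opposite directions are shown because the core bound by TGIF proteins, TGTCA on either strand, and a motif bound by ATF4, TGATGNAA on either strand, can be read in them. They are the 250 bases before the annotated start of each gene, from RefSeq on GRCm38.p6, 5′ to 3′ on the strand of the gene, with matches to either motif in capitals (TGACA and TTGCATCA are the reversed forms). Lgals3 lies at chr14:47373610-47373859 on the plus strand, Tpm2 at chr4:43523555-43523804, Asns at chr6:7693210-7693459 and Nupr1 at chr7:126625471-126625720, all 3 on the minus strand.
Lgals3: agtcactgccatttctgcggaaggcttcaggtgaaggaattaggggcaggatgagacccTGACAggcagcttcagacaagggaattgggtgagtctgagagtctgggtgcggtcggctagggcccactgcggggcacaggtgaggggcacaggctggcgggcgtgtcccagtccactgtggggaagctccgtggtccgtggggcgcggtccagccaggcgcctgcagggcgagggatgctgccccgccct
Tpm2: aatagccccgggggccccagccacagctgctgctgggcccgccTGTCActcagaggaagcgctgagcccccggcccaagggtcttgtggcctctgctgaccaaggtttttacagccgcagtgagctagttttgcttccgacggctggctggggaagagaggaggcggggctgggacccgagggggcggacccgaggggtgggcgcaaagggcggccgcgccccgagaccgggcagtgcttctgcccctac
Asns: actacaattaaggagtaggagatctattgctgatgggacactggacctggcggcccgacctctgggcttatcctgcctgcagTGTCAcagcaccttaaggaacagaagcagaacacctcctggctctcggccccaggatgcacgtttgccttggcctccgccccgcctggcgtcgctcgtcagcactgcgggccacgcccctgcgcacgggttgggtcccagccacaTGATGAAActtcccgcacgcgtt
Nupr1: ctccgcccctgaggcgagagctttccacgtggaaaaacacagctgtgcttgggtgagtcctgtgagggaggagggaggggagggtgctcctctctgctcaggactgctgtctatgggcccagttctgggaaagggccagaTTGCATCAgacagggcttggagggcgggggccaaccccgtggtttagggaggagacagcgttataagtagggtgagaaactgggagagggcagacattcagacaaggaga

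In these windows the TGTCA core began 191 bases before the start of Lgals3, 207 before that of Tpm2 and 168 before that of Asns. The TGATGNAA motif began 23 bases before the start of Asns and 110 before that of Nupr1. Over the 12559 windows found for 9882 of the measured genes, 34.0% held TGTCA and 2.32% held TGATGNAA. TGTCA stood in 33.4% of the windows of genes higher in the knockdown and lower on the arrays labelled Tgif1 OE and in 27.7% of those with the reverse pattern. It stood in 31.1% of the windows of genes higher in both arms and in 34.3% of those lower in both. TGATGNAA stood in 6 of the 21 windows of the ATF4 list (28.6%) and in 2 of the 6 windows of its members called in both arms. A match of this kind is a description of the sequence and not a bound site.

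Of 20 measured interferon-inducible genes, 7 were called in both arms with opposite signs, against 6.06% of all genes. Gbp2b, Gbp3, Gbp7, Irf1, Psmb8 and Psmb9 fell in the knockdown and rose on the arrays labelled Tgif1 OE, and Irf9 did the reverse. Bst2 and Tap1 were higher in both arms (2.01% of all genes). In all, 7 members were lower (13.2% of all genes) and 4 higher (12.8%) in the knockdown. On the arrays labelled Tgif1 OE 10 were higher (11.4% of all genes) and 3 lower (9.43%). The difference was called above 0 for 3 members (13.0% of all genes) and below 0 for 8 (14.8%). Its median was -0.34 against -0.06 for all genes.

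Psmb8, a catalytic subunit of the immunoproteasome, read 4.49 and 4.76 on Tgif1 KD, 5.17 and 5.40 on shControl, 7.10, 7.09, 7.19 and 7.18 on the arrays labelled Tgif1 OE and 5.61, 5.57, 5.80 and 5.59 on BirA control. It changed by -0.66 ± 0.11 (adjusted p = 0.001) and 1.5 ± 0.08 (adjusted p = 3.55e-07). Psmb9, a partner subunit, changed by -0.74 ± 0.11 and 0.77 ± 0.07. Both subunits were without overlap in both arms.

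The guanylate-binding proteins, interferon-induced GTPases, were dim in the knockdown arm. Gbp7 read 4.22 and 3.76 on Tgif1 KD, 4.70 and 4.54 on shControl, 6.29, 6.25, 6.11 and 6.20 on the arrays labelled Tgif1 OE and 4.75, 4.95, 5.0 and 4.99 on BirA control. Its changes were -0.63 ± 0.14 and 1.29 ± 0.10, Gbp3 changed by -0.75 ± 0.20 and 1.28 ± 0.14, and Gbp2b by -0.77 ± 0.26 and 2.94 ± 0.19. The rise on the arrays labelled Tgif1 OE was large in all 3, whereas the knockdown calls were lost when some single arrays were left out. The knockdown change of Gbp2b stayed between -0.89 and -0.66 when any 1 of the 4 knockdown-arm arrays was left out. Without Tgif1 KD replicate 2 or shControl replicate 1 the knockdown adjusted p of Gbp7 was 0.0611 and 0.0531 rather than 0.00538. Without Tgif1 KD replicate 1 or shControl replicate 2 that of Gbp3 was 0.156 and 0.185 rather than 0.0172. For Gbp2b it was 0.0475, and between 0.0926 and 0.221 without any 1 of the knockdown-arm arrays and between 0.0572 and 0.0583 without BirA control replicate 2, 3 or 4.

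The actomyosin and focal adhesion list divided between the kinds. Of 29 measured members, 17 were higher (11.4% of all genes) and 0 lower (9.43%) on the arrays labelled Tgif1 OE, with a median change of 0.76. In the knockdown 6 were higher (12.8% of all genes) and 5 lower (13.2%), with a median of -0.03. The difference was called below 0 for 14 (14.8% of all genes) and above 0 for 2 (13.0%), Lmna and Vim. Cnn2, Myl9, Tpm2 and Pdlim7 were lower in the knockdown and higher on the arrays labelled Tgif1 OE (2.78% of all genes). Myh9, Tpm1, Tpm4 and Ccn2 were higher in both (2.01%). Myh9, a non-muscle myosin heavy chain, changed by only 0.31 ± 0.09 and 0.23 ± 0.06. Its knockdown adjusted p of 0.0234 was between 0.0815 and 0.116 without any 1 of the 4 knockdown-arm arrays, and its overexpression adjusted p of 0.0222 was between 0.0643 and 0.0712 without Tgif1 OE replicate 3 or 4 or BirA control replicate 1. The fibroblast marker list shares Acta2, Tagln and Vim with this list. On the arrays labelled Tgif1 OE it moved with it, with 6 of its 18 members higher (11.4% of all genes) and 0 lower (9.43%). In the knockdown 1 was higher (12.8% of all genes) and 2 lower (13.2%).

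The tropomyosins, which coat actin filaments, showed how this depends on the gene and on the probe set. Tpm2 read 7.34 and 7.32 on Tgif1 KD, 8.33 and 8.32 on shControl, 9.63, 9.46, 10.01 and 10.06 on the arrays labelled Tgif1 OE and 8.64, 8.52, 8.90 and 8.98 on BirA control. Its changes were -0.99 ± 0.19 and 1.03 ± 0.14, and 2 of its other 3 probe sets gave -0.87 and 0.98, and -0.57 and 0.92; the dimmest gave -0.29 and 0.22. Tpm4 was higher in both arms, by 0.57 ± 0.12 and 0.76 ± 0.08, though with all 16 arrays in the fit its knockdown adjusted p was 0.0887. Tpm1 was higher in both arms on its brightest probe set, by 1.06 ± 0.30 and 1.18 ± 0.21. A second Tpm1 probe set, nearly as bright, gave -0.63 in the knockdown and 1.51 on the arrays labelled Tgif1 OE, the opposite pattern. The knockdown call of Tpm1 was lost without any 1 of the 4 knockdown-arm arrays (adjusted p 0.0717 to 0.096, against 0.0196).

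Myl9, a myosin light chain, changed by -0.88 ± 0.21 and 2.82 ± 0.15, and its knockdown adjusted p of 0.00935 became 0.0692 without Tgif1 KD replicate 1 and 0.0841 without shControl replicate 1. Ccn2, the connective tissue growth factor gene, read 8.93 and 8.97 on Tgif1 KD, 8.35 and 8.35 on shControl, 11.08, 11.02, 11.22 and 11.21 on the arrays labelled Tgif1 OE and 9.37, 9.32, 9.60 and 9.55 on BirA control. It was above control in both arms, by 0.60 ± 0.11 and 1.67 ± 0.08, and the effects differed by -1.07 ± 0.13 (adjusted p = 8.68e-05). With all 16 arrays in the fit, the knockdown adjusted p of Ccn2 was 0.0627.

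**Figure D3:**
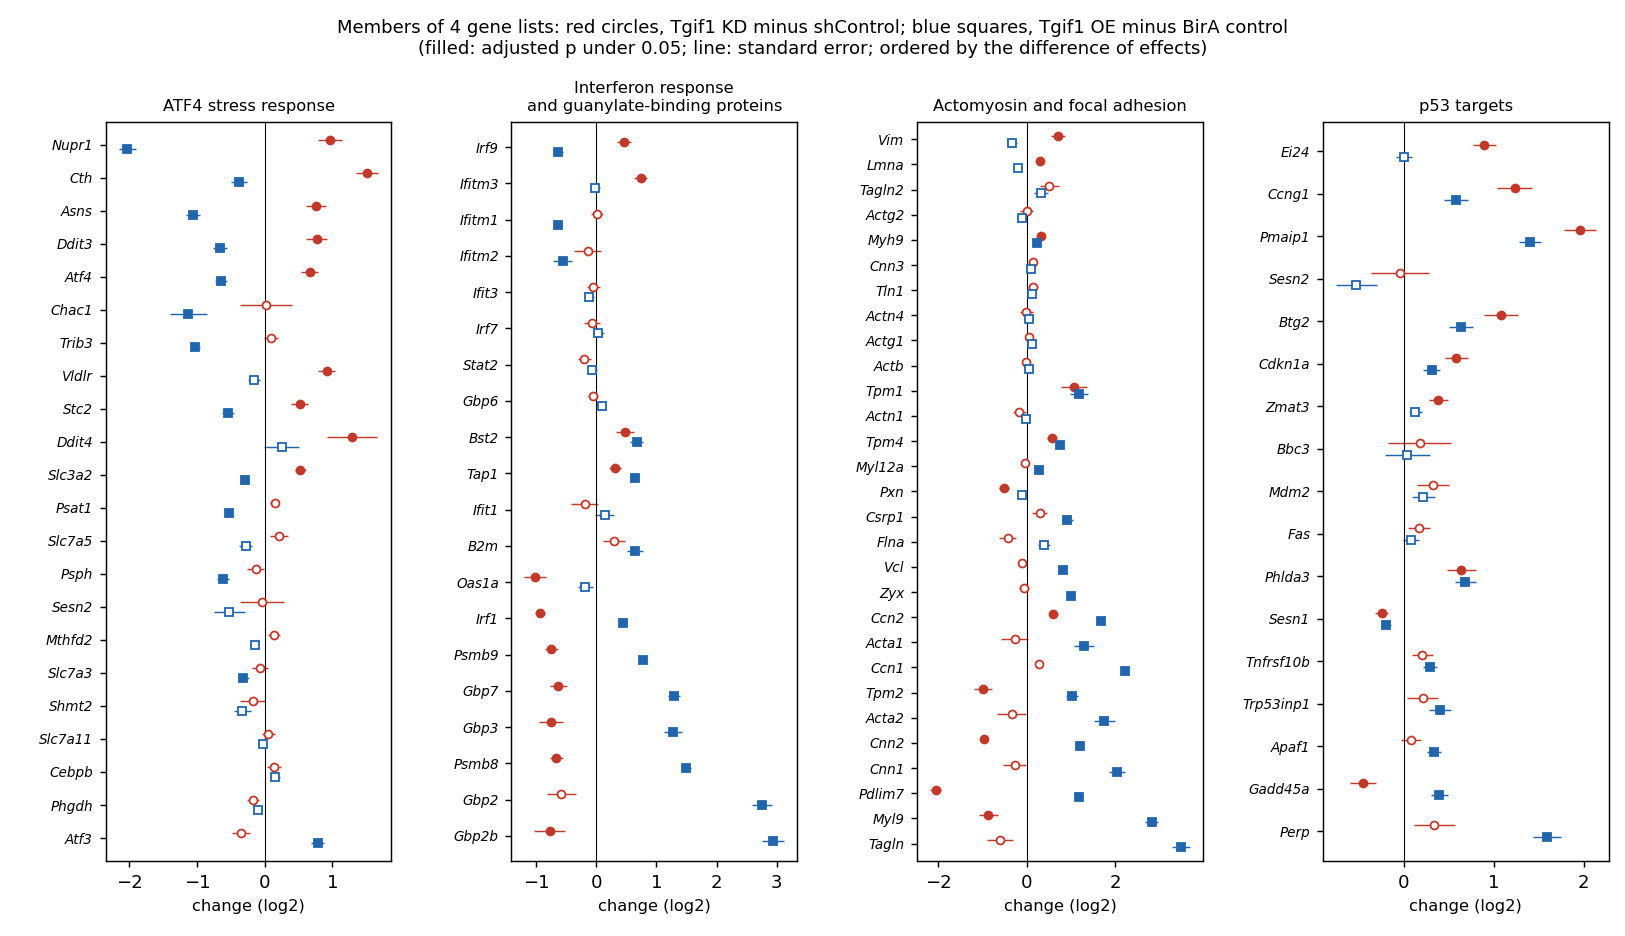
Log2 change of every measured member of 4 gene lists in Tgif1 KD against shControl (red circles) and on the arrays labelled Tgif1 OE against BirA control (blue squares), with standard errors; filled symbols passed an adjusted p of 0.05. The ATF4 list holds 7 members with filled symbols on opposite sides of 0, the interferon list 7, the actomyosin list 4 and the p53 list 1, Gadd45a.

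Targets of p53 that were called in both arms mostly moved in the same direction. The p53 factor halts the cell cycle or kills cells after damage. Of 17 measured members, 7 were called in both arms. Cdkn1a, Ccng1, Btg2, Phlda3 and Pmaip1 were higher in both (2.01% of all genes) and Sesn1 was lower in both (1.08%). Gadd45a was lower in the knockdown and higher on the arrays labelled Tgif1 OE (2.78% of all genes). In the knockdown 7 members were higher (12.8% of all genes) and 2 lower (13.2%). On the arrays labelled Tgif1 OE 10 were higher (11.4% of all genes) and 1 lower (9.43%). The median change was 0.33 in the knockdown and 0.31 on the arrays labelled Tgif1 OE, where the medians of all genes were -0.05 and 0.01. The difference of effects was called above 0 for 1 member (13.0% of all genes) and below 0 for 2 (14.8%).

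Pmaip1, which encodes the cell death protein NOXA, read 10.06 and 9.97 on Tgif1 KD against 8.01 and 8.11 on shControl. It read 9.0, 9.0, 9.23 and 9.23 on the arrays labelled Tgif1 OE against 7.96, 7.98, 7.44 and 7.49 on BirA control. Both manipulations lay well above their controls. The changes were 1.96 ± 0.18 (adjusted p = 1.22e-05) and 1.40 ± 0.12 (adjusted p = 1.31e-05), and their difference of 0.56 ± 0.21 was not called (adjusted p = 0.0751), though it was without BirA control replicate 3 (0.0298) or 4 (0.0436).

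The other p53 targets called in both arms changed less. Perp, not called in the knockdown, rose on the arrays labelled Tgif1 OE by 1.37 within replicates 1 and 2 and 1.81 within replicates 3 and 4. Ccng1, cyclin G1, changed by 1.23 ± 0.19 and 0.58 ± 0.14, and its 2 other probe sets were also above 0 in both arms. The anti-proliferative gene Btg2 changed by 1.08 ± 0.19 and 0.64 ± 0.13. Cdkn1a, the cell cycle inhibitor p21, changed by 0.59 ± 0.13 and 0.31 ± 0.09. It lost its overexpression call (adjusted p = 0.0298) without Tgif1 OE replicate 1, 2 or 3 or BirA control replicate 2, 3 or 4 (0.0545 to 0.0773), and its knockdown call (0.00543) without Tgif1 KD replicate 1 (0.0623) or shControl replicate 1 (0.0545). Phlda3 changed by 0.64 ± 0.16 and 0.69 ± 0.12, with a knockdown adjusted p of 0.0122 that became 0.0746 without Tgif1 KD replicate 1 and 0.0875 without shControl replicate 2. Gadd45a, a growth arrest gene, changed by -0.45 ± 0.14 and 0.40 ± 0.10, and its knockdown call (adjusted p = 0.0334) was lost without any 1 of the 4 knockdown-arm arrays (0.0804 to 0.166). Sesn1, a sestrin, changed by -0.24 ± 0.07 and -0.19 ± 0.05. Its knockdown call (adjusted p = 0.0283) was lost without any 1 of those arrays (0.0645 to 0.168) and its overexpression call (0.0195) without Tgif1 OE replicate 3 or 4 (0.0559 and 0.0627).

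Regulators of the G1 phase that were called in both arms also moved together more often than apart. Of 19 measured, Ccne2, Cdkn1a, Cdkn2b, Rb1 and Rbl1 were higher in both arms (2.01% of all genes). Ccnd3 and Cdkn2a were higher in the knockdown and lower on the arrays labelled Tgif1 OE (3.28% of all genes). Ccnd3, cyclin D3, read 11.70 and 11.68 on Tgif1 KD, 10.93 and 10.87 on shControl, 8.99, 8.98, 8.65 and 8.60 on the arrays labelled Tgif1 OE and 9.95 to 10.03 on BirA control, with changes of 0.79 ± 0.12 and -1.19 ± 0.09. Rb1, the retinoblastoma gene, changed by 1.25 ± 0.10 and 0.33 ± 0.07, with an overexpression adjusted p of 0.0853 when the array pair was a random block. The Cdkn2a locus, which encodes p16 and p19Arf, changed by 0.51 ± 0.13 and -1.05 ± 0.10, and its knockdown adjusted p of 0.0155 became 0.127 without Tgif1 KD replicate 1 and 0.103 without shControl replicate 2.

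The overexpression calls of Cdkn2b and Ccne2 were lost with the replicate block. Cdkn2b, the p15 inhibitor gene, changed by 0.63 ± 0.18 and 0.45 ± 0.13, and the block moved its adjusted p to 0.0515 for the knockdown and 0.0608 for the overexpression. It also lost the knockdown call without Tgif1 KD replicate 1 (0.201), shControl replicate 1 (0.104) or shControl replicate 2 (0.0868), and the overexpression call without replicate 3 or 4 of either group (0.0606 to 0.0819). Ccne2, cyclin E2, changed by 0.74 ± 0.17 and 0.37 ± 0.12. Its overexpression adjusted p of 0.0457 was 0.0726 with the block and between 0.0594 and 0.115 without any 1 of 9 arrays, that is all but Tgif1 OE replicate 2 and BirA control replicates 1 and 2. Its knockdown p was 0.0535 without shControl replicate 2.

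Outside the lists, Rnf128, an E3 ubiquitin ligase, had the largest change in the less affected arm among genes higher in both arms. It read 8.18 and 8.14 on Tgif1 KD, 6.05 and 6.17 on shControl, 8.27, 8.37, 8.87 and 8.80 on the arrays labelled Tgif1 OE and 6.91, 7.02, 6.59 and 6.47 on BirA control. Its changes were 2.05 ± 0.21 and 1.83 ± 0.15, the second probe set gave 1.96 and 2.00, and the difference was not called (0.21 ± 0.26, adjusted p = 0.599). The receptor-like gene Igdcc4 changed by 1.42 ± 0.25 and 1.49 ± 0.17. Irs1, the insulin receptor substrate, changed by 1.58 ± 0.43 and 1.46 ± 0.30, and its knockdown call (adjusted p = 0.0165) was lost without any 1 of the 4 knockdown-arm arrays (0.0644 to 0.0833).

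Of the 17 measured neuroectoderm genes, Neurod1, Nefl and Nefm were higher in both arms (2.01% of all genes) and Tubb3 was lower in both (1.08%). Mapt was higher in the knockdown and lower on the arrays labelled Tgif1 OE (3.28% of all genes). In the knockdown 5 members were higher (12.8% of all genes) and 2 lower (13.2%). On the arrays labelled Tgif1 OE 6 were higher (11.4% of all genes) and 2 lower (9.43%). Neurod1, a neurogenic transcription factor, read 9.47 and 9.50 on Tgif1 KD, 6.84 and 6.81 on shControl, 8.89, 8.88, 9.57 and 9.63 on the arrays labelled Tgif1 OE and 8.04, 7.86, 8.60 and 8.60 on BirA control. It changed by 2.66 ± 0.29 and 0.97 ± 0.20, and the effects differed by 1.69 ± 0.36 (adjusted p = 0.0037). The neurofilament genes Nefm and Nefl, neighbours in the genome, changed by 2.24 ± 0.48 and 1.54 ± 0.34, and by 1.45 ± 0.13 and 0.31 ± 0.09. The rise of Nefm on the arrays labelled Tgif1 OE was 0.58 within replicates 1 and 2 and 2.50 within replicates 3 and 4. The overexpression call of Nefl (adjusted p = 0.0274) was lost with the replicate block (0.0512), without replicate 3 or 4 of either overexpression-arm group and without BirA control replicate 1 (0.0521 to 0.0765). For Mapt, a microtubule-associated protein gene, the knockdown adjusted p was 0.0543 with the replicate block, and between 0.0947 and 0.162 without Tgif1 KD replicate 1 or either shControl array.

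Among genes lower in both arms, Slc66a2 had the largest change in the less affected arm. This gene for a transmembrane protein read 6.60 and 6.56 on Tgif1 KD, 8.52 and 8.55 on shControl, 7.88, 7.88, 7.66 and 7.62 on the arrays labelled Tgif1 OE and 8.60, 8.71, 8.83 and 8.83 on BirA control. Its changes were -1.95 ± 0.11 (adjusted p = 4.81e-07) and -0.98 ± 0.08 (adjusted p = 6.26e-06). Itpka, an inositol trisphosphate kinase, changed by -0.85 ± 0.13 and -0.91 ± 0.09. Hmces, which protects abasic sites in DNA, changed by -0.87 ± 0.13 and -0.82 ± 0.09. Scd1, the stearoyl-CoA desaturase, changed by -1.12 ± 0.20 and -0.54 ± 0.14, and with the mean of its probe sets the overexpression adjusted p was 0.0656.

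**Figure D4:**
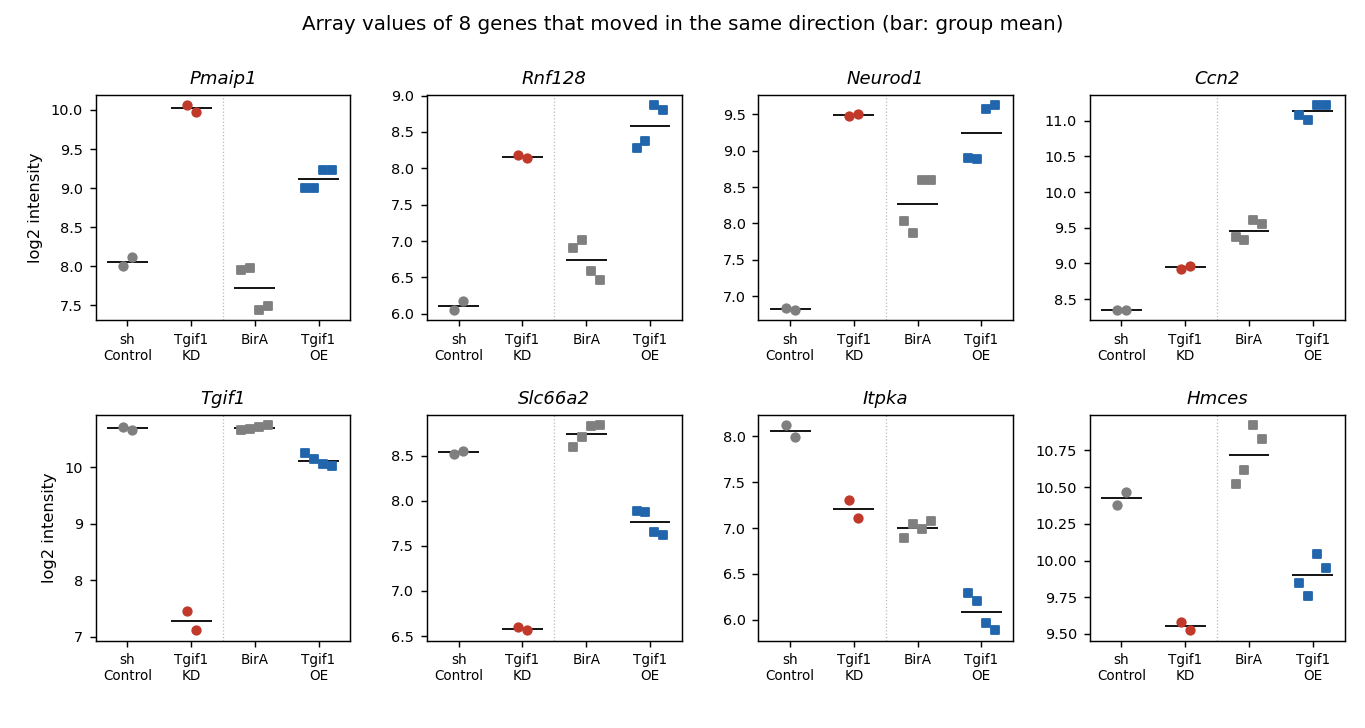
Log2 intensity on each of the 12 arrays for 4 genes higher in both arms (top) and 4 genes lower in both arms (bottom), with symbols as in the plot of opposite genes. Pmaip1 lies at 9.97 to 10.06 on Tgif1 KD and 9.0 to 9.23 on the arrays labelled Tgif1 OE, above both controls, and Tgif1 lies below both controls.

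Core and naive pluripotency factors differed between the arms, with more calls on the arrays labelled Tgif1 OE than in the knockdown. Of 19 measured, the difference of effects was called above 0 for 9 (13.0% of all genes) and below 0 for 3 (14.8%), with a median difference of 0.48. On the arrays labelled Tgif1 OE 10 were lower (9.43% of all genes) and 1 higher (11.4%). In the knockdown 2 were higher and 3 lower, near the shares over all genes (12.8% and 13.2%). Tcl1, Fbxo15 and Zfp281 were called in both arms, all with opposite signs (15.8% of the list, against 6.06% of all genes). Tcl1 and Fbxo15 rose in the knockdown and fell on the arrays labelled Tgif1 OE, whereas Zfp281 did the reverse. Tcl1, a cofactor of Akt kinase, read 10.79 and 10.79 on Tgif1 KD, 10.08 and 10.03 on shControl, 8.38, 8.33, 7.95 and 7.91 on the arrays labelled Tgif1 OE and 9.76, 9.83, 9.68 and 9.80 on BirA control, with changes of 0.73 ± 0.14 and -1.62 ± 0.10. Fbxo15, an F-box gene of undifferentiated cells, changed by 0.95 ± 0.14 and -0.80 ± 0.10.

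Of the central factors, Nanog, Esrrb and Pou5f1 had a called difference. Nanog changed by 0.45 ± 0.20 in the knockdown (adjusted p = 0.121) and -0.69 ± 0.14 on the arrays labelled Tgif1 OE (adjusted p = 0.00381), a difference of 1.14 ± 0.24 (adjusted p = 0.00393). With the replicate block the knockdown adjusted p of Nanog was 0.00391. Esrrb changed by 0.55 ± 0.25 (adjusted p = 0.138; 0.0121 with the block) and -1.08 ± 0.18, a difference of 1.63 ± 0.31 (adjusted p = 0.00198). The difference for Pou5f1, which encodes Oct4, was 0.29 ± 0.09 (adjusted p = 0.037), from changes of 0.17 ± 0.08 and -0.12 ± 0.05 of which neither was called. The call was lost with the replicate block (0.0517), without any 1 of the knockdown-arm arrays (0.0925 to 0.114), and without Tgif1 OE replicate 1 or 4 or BirA control replicate 1, 3 or 4 (0.0503 to 0.0664). Sox2 changed by 0.20 ± 0.11 and -0.08 ± 0.08, and neither was called. Differences for Sox2 (0.28 ± 0.13), Klf4 (0.48 ± 0.22) and Zfp42 (0.31 ± 0.14) were not called, at adjusted p of 0.144, 0.136 and 0.131. With the block those of Klf4 and Zfp42 were 0.0468 and 0.0313.

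Formative and primed genes, which rise as ES cells leave the naive state, lay on the other side. Of 17 measured, the difference was called below 0 for 12 (14.8% of all genes) and above 0 for 1 (13.0%), Ncam1, with a median of -1.10. On the arrays labelled Tgif1 OE 13 were higher (11.4% of all genes) and 1 lower (9.43%). In the knockdown 1 was higher (12.8% of all genes) and 3 lower (13.2%). Dnmt3b, Cdh2 and Grhl2 were lower in the knockdown and higher on the arrays labelled Tgif1 OE (2.78% of all genes). Fgf5 was near the lower end of the scale in all groups and its difference was not called (-0.11 ± 0.21, adjusted p = 0.739).

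Of the primitive endoderm list 1 of 19 measured members was called in both arms, and of the trophectoderm list 1 of 20. Each moved in the same direction in both arms, a kind that holds 3.09% of all genes. Neither list held an opposite gene (6.06% of all genes). Cdx2, a trophectoderm factor, had a difference of -0.76 ± 0.19 (adjusted p = 0.0107) that its other, dimmer probe set did not share (0.04). This call was lost with all 16 arrays in the fit (0.0784), when probe sets were averaged (0.0968) and when array pairs were a random block (0.117). Gata6, a primitive endoderm factor, had a difference of 0.52 ± 0.16 (adjusted p = 0.0323). Its adjusted p was between 0.0705 and 0.114 without any 1 of the knockdown-arm arrays and between 0.0512 and 0.0565 without Tgif1 OE replicate 3 or 4 or BirA control replicate 2 or 3. None of the 17 mesoderm genes, 12 Wnt targets, 18 ribosomal protein genes, 18 fibroblast markers or 8 genes of the 2-cell stage was called in both arms. Over all genes 6.06% were called in both with opposite signs and 3.09% with the same sign. At these shares lists this small would hold few such genes, so a count of 0 is no result about the members. The difference was called for 0 of the ribosomal protein genes (27.7% of all genes).

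Differences of effects could be large where only 1 arm moved. Usp17la, a deubiquitinase gene of the 2-cell stage, had the largest, 4.93 ± 0.21 (adjusted p = 5.32e-08). It read 8.52 and 8.38 on Tgif1 KD and between 3.55 and 4.21 on the other 10 arrays. The difference was called above 0 for 7 of the 8 measured genes of that stage (13.0% of all genes), all of them higher in the knockdown (12.8%). On the arrays labelled Tgif1 OE 0 were called (20.9% of all genes). At the other end, Tagln, an actin-binding gene of contractile cells, had a difference of -4.09 ± 0.35 (adjusted p = 6.7e-06). It read 10.03, 10.15, 10.91 and 10.90 on the arrays labelled Tgif1 OE against 6.65, 6.98, 7.35 and 7.08 on BirA control, with a knockdown change of -0.60 ± 0.29 (adjusted p = 0.151; 0.0148 with the replicate block). Krt18, a keratin of simple epithelia, had a difference of -3.72 ± 0.48 and a knockdown change of -0.86 ± 0.39 (adjusted p = 0.135; 0.0424 with the block). Ccnd2, cyclin D2, differed by -3.57 ± 0.31, with 4.88 and 5.38 on Tgif1 KD, 8.49 and 8.44 on shControl and a change of 0.23 ± 0.18 on the arrays labelled Tgif1 OE (adjusted p = 0.427). That the second arm missed the threshold for these genes does not show that it had no effect.

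Smaller changes depended on how the spread was estimated. When array pairs were fitted as a random block, the knockdown calls of Gbp2b, Gbp3, Gbp7, Myl9, Myh9, Mapt, Id2, Cdkn2a, Cdkn2b, Cdkn1a, Gadd45a, Phlda3, Sesn1 and Stc2 were lost, at adjusted p of 0.0747 to 0.212. So were the overexpression calls of Cth, Rb1, Ccne2, Nefl, Myh9, Sesn1, Cdkn1a, Cdkn2b and Gadd45a, at 0.0503 to 0.228, and the differences of Pou5f1 (0.23) and Gata6 (0.188). With all 16 arrays in the fit, the knockdown calls of Tpm1 (0.0594), Gbp2b (0.193), Gbp3 (0.0727), Myl9 (0.132), Id2 (0.199), Myh9 (0.0894) and Sesn1 (0.102) were lost, and the overexpression calls of Nefl (0.0908), Myh9 (0.0877) and Sesn1 (0.0789). With the mean of the probe sets, the knockdown adjusted p was 0.526 for Tpm1, 0.131 for Id2, 0.378 for Myh9 and 0.463 for Sesn1, and the overexpression adjusted p of Sesn1 was 0.12. With quantile normalization that of Gbp2b in the knockdown was 0.0592.

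**Figure D5:**
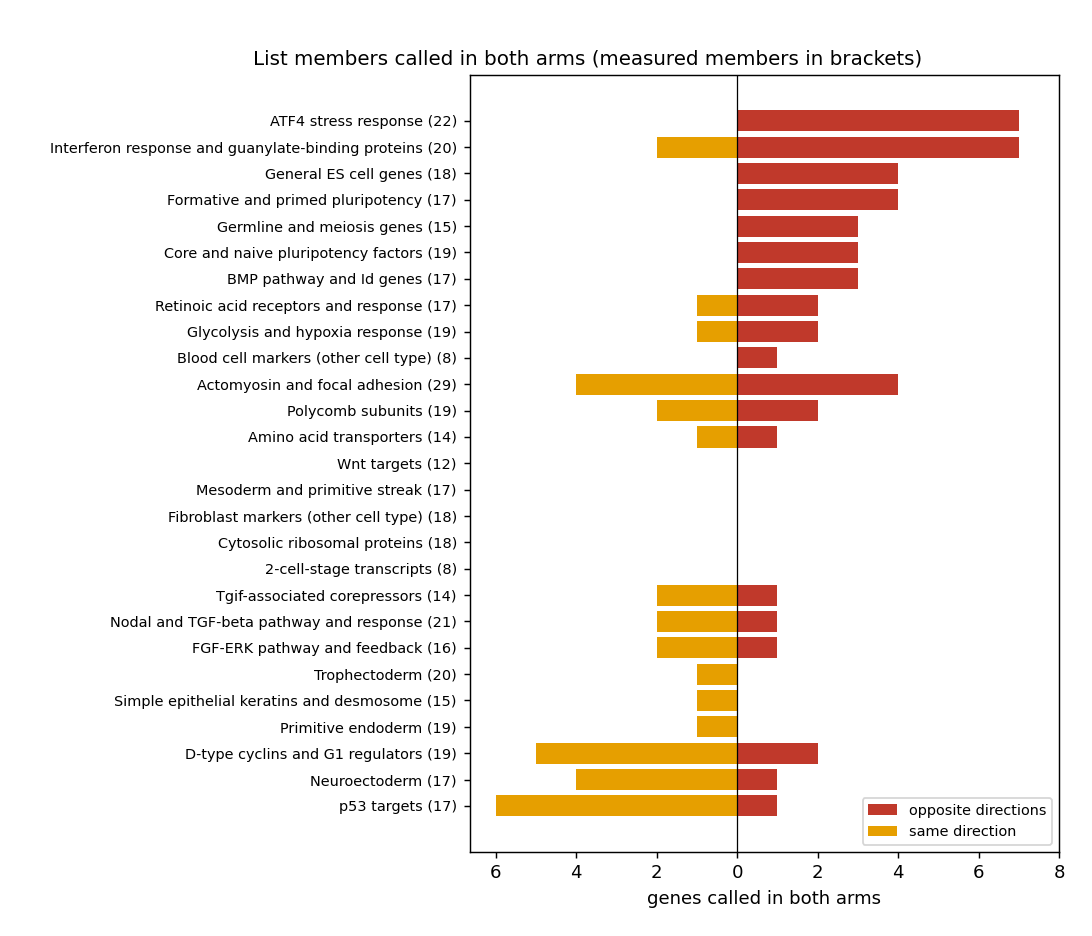
Number of members called in both arms for each of 27 gene lists, with opposite directions to the right of 0 and the same direction to the left; the number of measured members is in brackets. The ATF4 list (7 opposite, 0 same) and the p53 list (1 opposite, 6 same) stand at the ends, and the actomyosin list holds 4 of each.

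Some opposite genes sit side by side in the genome. Among 12377 genes placed in order by the RefSeq annotation, the 406 genes higher in the knockdown and lower on the arrays labelled Tgif1 OE held 28 runs of neighbouring measured genes, with 58 genes in them, Apoc1 with Apoe and Hadha with Hadhb among them. The 345 genes with the reverse pattern held 11 runs with 26 genes, including Gbp7, Gbp3 and Gbp2b. The 249 genes higher in both arms held 8 runs, including Nefl with Nefm, and the 134 lower in both held 4. The runs held by equally many genes taken at random were not counted, so no clustering can be read from these numbers. Probes of related neighbours, such as the Gbp genes, can share target sequence, which was not tested.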

How the data were processed

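RNA of 12 samples was hybridised to Affymetrix Mouse 430A 2.0 arrays. Each probe set has 1 deposited log2 intensity per array, computed by the authors with RMA per the submitters' processing notes; the version is not given in the sources used here. They ran from 2.19 to 14.68, and no detection calls were used. Of 22690 probe sets, 64 were controls, 20380 carried 1 symbol in the platform annotation, 691 several and 1555 none; 4956 genes had more than 1 probe set.

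Group means were fitted to the 12 arrays with limma 3.58.1 (lmFit and eBayes; R 4.3.3), with contrasts for each arm and for their difference, and p-values were adjusted by the Benjamini-Hochberg method over 12393 genes. The 4 groups share 1 estimate of the spread with 8 residual degrees of freedom, so standard errors in the knockdown arm also carry the spread of the overexpression arm. The number of arrays, 2 or 4 per group, limits the precision. The code was tested on simulated data.

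The replicate block paired same-numbered arrays in both arms. Deviations of same-numbered arrays correlated at 0.32 to 0.40 over genes in the overexpression arm. In the knockdown arm they correlated at -0.01, which gives no sign of pairing there. In the overexpression arm the best match of another number was as close, at 0.32 to 0.40, and the same number was the best match for replicates 3 and 4 but not 1 and 2, so the correlations also hold the split of these pairs.

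Named genes were Tgif1, Tgif2, the 8 genes per class with the largest smaller change, the 6 largest differences in each direction, up to 3 members per list and 9 lineage and pluripotency genes. Another 25 were chosen after their values were seen. The 27 lists (521 entries; 430 of 484 distinct genes measured), like the members, were chosen with earlier results of these data known.

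Alternatives covered normalization, probe sets, dim genes, variance model, array pairs, thresholds and leaving out each array. Promoters came from RefSeq tables on GRCm38.p6.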

Additional observations from a re-analysis of the deposited data

Results flagged for a closer look

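In 8 of the 270 groups of 4 arrays examined for the named genes, 1 array stood apart from the other 3 by Dixon's criterion at the 95% level, which chance meets in about 5% of groups. On BirA control replicate 1, Cnn2 was 9.0 (others 9.04 to 9.04), Gbp2b 5.49 (others 5.86 to 5.93) and Cdkn1a 8.99 (others 8.60 to 8.64). On BirA control replicate 2, Sesn1 was 8.42 (others 8.38 to 8.38), and on replicate 3 Crabp2 was 6.16 (others 6.03 to 6.05). On Tgif1 OE replicate 2, Meis1 was 3.55 (others 3.76 to 3.80), Myc 9.72 (others 9.80 to 9.81) and Fgf5 4.68 (others 4.11 to 4.19).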

How the results depend on the processing

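The direction of every opposite and same-direction gene called in a setting was the same as in the main analysis wherever both called it, in all 22 settings that can be compared gene by gene. The counts moved more. With an array pair (replicates 1 and 2, or 3 and 4) as a fixed term, 4040 genes were called in the overexpression arm, 1332 opposite and 847 same-direction. With the pair as a random block (correlation 0.53) the calls were 1667, 1273 and 1855 in the knockdown, the overexpression and the difference, with 275 opposite and 118 same-direction genes. With replicates 3 and 4 alone, 5204 genes were called in the knockdown and 799 were same-direction. With the replicate block, 579 were same-direction. At an adjusted p under 0.01 the counts were 1970, 1558, 2178, 360 and 171, and with a change of at least 1 they were 399, 210, 854, 21 and 11. Testing every probe set on its own gave 5207 differences. Leaving out 1 array gave 1990 to 3294 knockdown calls, 2101 to 2433 overexpression calls, 2485 to 3490 differences, 486 to 722 opposite and 249 to 358 same-direction genes; where that left 1 array in a group, it was assumed to vary like the others. Other settings stayed within 1.5 times of these counts.

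A sign turned only in values that were not called. With replicates 3 and 4 alone the overexpression change was 0.0031 for AF067061, -0.16 for Ccnd2, -0.073 for Fgf8, 0.083 for P4ha1, 0.10 for Scml2 and 0.12 for Usp17la, and the difference was -0.15 for Cdkn2b, 0.0044 for Hmces, -0.26 for Nefm and -0.26 for Rnf128. With replicates 1 and 2 alone the overexpression change was -0.10 for Col4a1 and -0.030 for Ei24, and the difference was -0.075 for Galnt7, 0.061 for Igdcc4, -0.13 for Itpka, 0.077 for Phlda3, 0.23 for Tpm1 and 0.014 for Tpm4. With the mean of the probe sets the overexpression change was -0.015 for Gata6 and -0.045 for Slc38a4, the knockdown change -0.13 for Mybl2, and the difference 0.077 for Igdcc4, -0.13 for Myh9 and 0.059 for Sesn1. Leaving out 1 array moved the knockdown change of Cd68 between -0.065 and 0.0035, of Fst between -0.14 and 0.40 and of Thbs1 between -0.40 and 0.19. It moved the overexpression change of Ei24 between -0.054 and 0.062, of Gata6 between -0.011 and 0.13 and of Scml2 between -0.088 and 0.050. It moved the difference of Cdkn2b between -0.010 and 0.38, of Fgf5 between -0.22 and 0.022, of Galnt7 between -0.075 and 0.24, of Hmces between -0.12 and 0.016, of Igdcc4 between -0.20 and 0.042, of Irs1 between -0.12 and 0.31, of Itpka between -0.031 and 0.17, of Lgals9 between -0.50 and 0.16, of Phlda3 between -0.17 and 0.038 and of Tpm1 between -0.32 and 0.056. Causes were not tested.

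Among named genes, 115 of the knockdown values under an alternative lost a call and 64 gained one; for the overexpression arm these were 92 and 30, and for the difference 46 and 42. Besides the changes given above, the replicate block added knockdown calls for Tbx3 (0.0181), Mybl2 (0.0354), Sall2 (0.0169), Pou3f1 (0.0106), Ccn1 (0.0287), Sp5 (0.0112) and Dazl (0.00833), overexpression calls for Dppa3 (0.0205), Ccnd1 (0.0307), Fos (0.0419), Klf4 (0.0153) and Fgf5 (0.0467) and calls of the difference for Scd1 (0.00959) and Btg2 (0.0276), all adjusted p from limma. It changed no other call of a named gene. Background signal is not known here, so values near the lower end of the scale may be bounded by it.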
